A study of Mus musculus with 43 samples.

Results

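The miR-34 and miR-449 microRNAs were followed through epididymis tissue, epididymal fluid and cauda sperm of WT mice and of mice lacking the Rnase9-12 gene cluster. The family was taken as 5 microRNA genes chosen by name, Mir34a, Mir34b, Mir34c, Mir449a and Mir449c (transcripts Mir34a-201, Mir34b-201, Mir34c-201, Mir449a-201 and Mir449c-201), among 5364 RNAs listed in at least 1 of 3 count tables. Of the 5 genes, 3 were listed in tissue (Mir34a, Mir34b and Mir34c), 4 in fluid (also Mir449a) and 5 in sperm. Mir449b was listed in none of the 3 and is not among the 5. After the filter on low counts, 1 was tested in tissue (Mir34c), 4 in fluid and 4 in sperm (all but Mir449c).

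All 43 libraries came from FVB mice 8 to 12 weeks old, either WT or homozygous for a CRISPR/Cas9 deletion of Rnase9, Rnase10, Rnase11 and Rnase12, termed KO. The deletion was present in every cell of the animal, and the deleted genes encode secreted RNase A family proteins of the epididymal epithelium. Tissue was sequenced with ARM-seq, in 3 WT and 3 KO libraries of caput, 3 WT and 2 KO libraries of corpus, and 3 WT and 3 KO libraries of cauda. Fluid, cleared of sperm, vesicles and debris by centrifugation, was sequenced with OTTR-seq in 3 WT and 3 KO libraries of each segment, and cauda sperm with OTTR-seq in 4 WT and 4 KO libraries. Each fluid or sperm library pooled the RNA of 3 mice. All RNA was treated with polynucleotide kinase to open 3′ ends blocked by a phosphate. ARM-seq ligates adapters, whereas OTTR-seq adds them by template jumping of a reverse transcriptase, so the material and the protocol cannot be told apart between tissue and the other materials.

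MicroRNAs are cut from a hairpin, and 1 arm of it, loaded into an Argonaute protein, pairs with target mRNAs through its seed, bases 2 to 8. The miR-34 and miR-449 genes share 1 seed. Mir34b and Mir34c lie in 1 cluster and, with the Mir449 cluster, are known for expression in multiciliated cells and in male germ cells from meiosis onward, and miR-34c is a known microRNA of mouse sperm. Mir34a, at a locus of its own, is broadly expressed and is a known target of p53.

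The sequences below, from RefSeq on GRCm38.p6, show what binds the family together and what tells its hairpins apart. Capitals mark the 7 seed bases GGCAGUG in each 5′ arm and, for Mir34c, the same 7 bases within the hairpin.
miR-34a-5p: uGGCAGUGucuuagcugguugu
miR-34b-5p: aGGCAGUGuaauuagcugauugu
miR-449a-5p: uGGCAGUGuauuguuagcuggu
miR-449c-5p: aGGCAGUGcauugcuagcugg
Mir34c hairpin: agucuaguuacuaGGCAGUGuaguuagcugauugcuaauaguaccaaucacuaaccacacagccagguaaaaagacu
Of 1738 mature mouse microRNAs in the RefSeq table, 4 (0.23%) hold this seed, and they are the 4 listed above. That table has no entry for miR-34c-5p, so it is not in this count and its hairpin stands in its place. The 3′ arms carry different seeds, shown in capitals below, except that the arms of Mir34b and Mir34c share AUCACUA.
miR-34a-3p: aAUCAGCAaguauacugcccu
miR-34b-3p: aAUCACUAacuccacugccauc
miR-34c-3p: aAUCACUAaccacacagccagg
miR-449a-3p: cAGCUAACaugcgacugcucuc
miR-449c-3p: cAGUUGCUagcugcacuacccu
A count in these data is the number of reads on a hairpin, with both arms together, so the arms were not told apart. The longest run of bases shared by any pair of the 5 hairpins was 11, and the shortest read counted had 16 bases, so no exact read could match 2 of them.

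The places of the hairpins, in GENCODE vM21 coordinates on GRCm38, put the family on 3 chromosomes. Mir34a lies at chr4:150068454-150068555 on the plus strand, where its 3′ end overlaps an exon of Gm37795, a transcript of uncertain type on the same strand. Mir34c at chr9:51103034-51103110 and Mir34b at chr9:51103562-51103645 are 451 bases apart on the minus strand, within an intron of Btg4, which is on the opposite strand. Mir449c at chr13:113035983-113036091 and Mir449a at chr13:113037534-113037624 are 1442 bases apart on the plus strand, within introns of Cdc20b, a gene of multiciliated cells, on the same strand.

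Tissue libraries held 30142156 to 249732714 counts, of which 7795 to 119102 were on microRNAs. Fluid libraries held 1948718 to 12320922 counts, with 9264 to 52541 on microRNAs. Sperm libraries held 1134840 to 62128314 counts, with 1119 to 78957 on microRNAs. In sperm, 1 WT and 3 KO libraries had more than 30000000 counts and 3 WT and 1 KO libraries fewer, so depth moved with genotype. The Rnase9-12 mRNAs were not among the RNAs counted, and the genotypes could not be checked in these tables. A section label of cauda on 6 caput fluid libraries and 1 WT caput tissue library went against their titles, which were followed.

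Sperm gave the family a larger share of its microRNA counts than fluid, and fluid a larger share than most tissue libraries. The 5 genes held from 1.83% to 4.38% of microRNA counts in the 8 sperm libraries, with a median of 3.46%. In the 18 fluid libraries they held 0.0934% to 0.843%, with a median of 0.345%. In the 17 tissue libraries they held 0.0113% to 0.123%, with a median of 0.0573%. On this scale the ranges of sperm and fluid did not overlap, and those of fluid and tissue did. Sperm and fluid overlapped as a share of all counts (0.00169% to 0.00584% against 0.000296% to 0.00313%) and as a share of counts on RNAs that are neither tRFs, tRNAs nor rsRNAs (0.0348% to 0.0666% against 0.00299% to 0.0447%), while fluid and tissue did not overlap on either. These are descriptions, since the materials were not tested against each other. In bulk samples, fewer cells of a type and less RNA per cell cannot be told apart. Within sperm the share was 3.56% ± 1.19 (SD, n = 4) in WT and 3.17% ± 0.808 (n = 4) in KO, a difference that did not pass a 2-sided exact permutation test (p = 0.571, 0.788 after Benjamini-Hochberg adjustment over 42 shares). The best counted library, WT sperm replicate 1, gave 4.31% (95% Wilson interval 4.16% to 4.46%, from 3071 family counts), and the lowest share, in WT sperm replicate 4, was 1.83% (1.498% to 2.24%, from 93 counts). Intervals and limits of this kind cover counting error only.

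**Figure D1:**
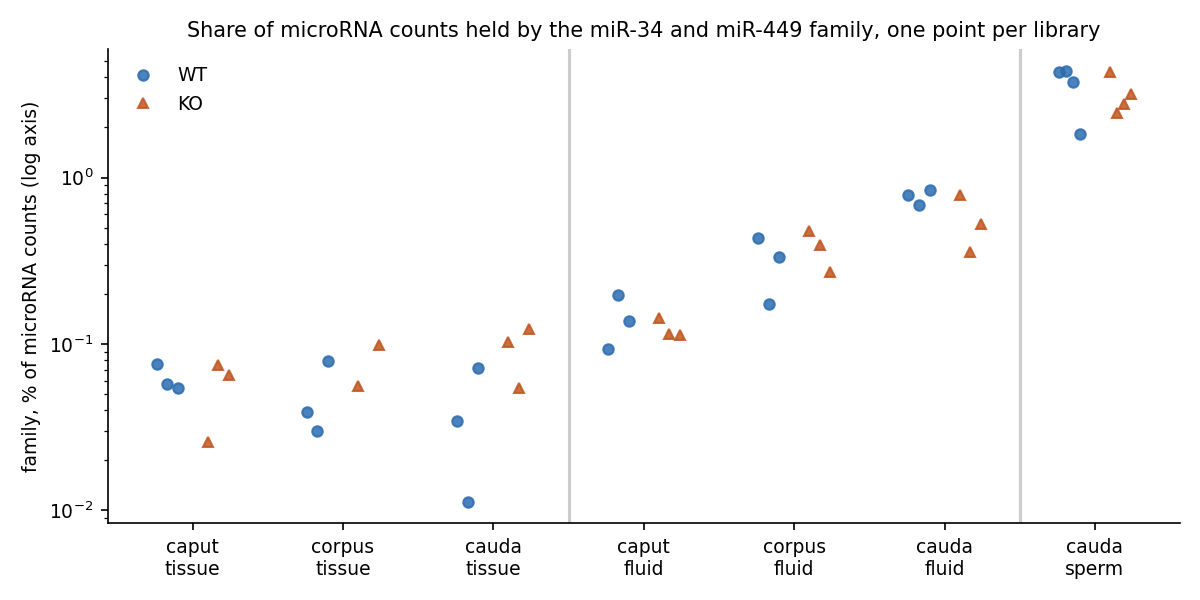
Share of microRNA counts held by the listed miR-34 and miR-449 genes, in percent on a log axis, with 1 point per library for WT (circles) and KO (triangles) in each segment and material. Sperm libraries sit between 1.83% and 4.38%, fluid libraries between 0.0934% and 0.843% and tissue libraries between 0.0113% and 0.123%.

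Within the family, Mir34b and Mir34c held most counts, and which of them led differed between the materials as sequenced. In tissue, Mir34c held a median of 64.3% of family counts (n = 17), Mir34b 18.2% and Mir34a 8.97%. In fluid, Mir34b held a median of 57.3% (n = 18), Mir34c 20.3%, Mir34a 18.6% and Mir449a 8.99%. In sperm, Mir34b held a median of 46.4% (n = 8), Mir34c 38.1%, Mir449a 11.9%, Mir34a 4.08% and Mir449c 0.0230%. With each count divided by the length of its hairpin, Mir34c was still the highest member in 16 of 17 tissue libraries, and Mir34b in 15 of 18 fluid and 7 of 8 sperm libraries. Per base, the order in sperm was Mir34b, Mir34c, Mir449a, Mir34a and Mir449c. The ranges of Mir34b and Mir34c overlapped, as did those of Mir449a and Mir34a, and the other neighbours did not overlap.

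Mir34b and Mir34c are neighbours in 1 cluster, and their ratio describes how that cluster was sampled in each material. The log2 ratio of their counts, with 0.5 added to each, had a median of -1.58 in tissue (-4.09 to 0.65), of 1.51 in fluid (-0.21 to 4.05) and of 0.23 in sperm (0.09 to 0.66). Mir34c had the higher count in 16 of 17 tissue libraries and Mir34b in 16 of 18 fluid and 8 of 8 sperm libraries. Dividing by hairpin length (84 bases for Mir34b, 77 for Mir34c) lowers each log2 ratio by 0.13 and leaves Mir34b higher in 16 fluid and 7 sperm libraries. The sperm and tissue ranges overlapped only through WT corpus tissue replicate 1, whose ratio of 0.65 rests on 5 Mir34b and 3 Mir34c counts. The difference between tissue and the other materials cannot be told apart from the change of protocol.

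In WT fluid the ratio was 0.11 ± 0.38 in caput and 1.55 ± 0.04 in cauda (SD, n = 3 each), without overlap. A 2-sided exact permutation test gave p = 0.10, the smallest that 3 against 3 libraries allow, and 0.75 after adjustment over 10 ratios. The 3 WT cauda fluid libraries were close to each other, at 1.56, 1.51 and 1.58. In sperm the ratio was 0.35 ± 0.25 in WT and 0.26 ± 0.11 in KO (n = 4 each), which overlapped (exact permutation p = 0.543). In tissue and fluid the 6 KO versus WT comparisons of this ratio gave exact permutation p between 0.30 and 0.80. The smallest that 3 against 3 libraries allow is 0.10, and the 2 KO against 3 WT corpus tissue libraries allow only a larger one, so none could have passed 0.05.

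**Figure D2:**
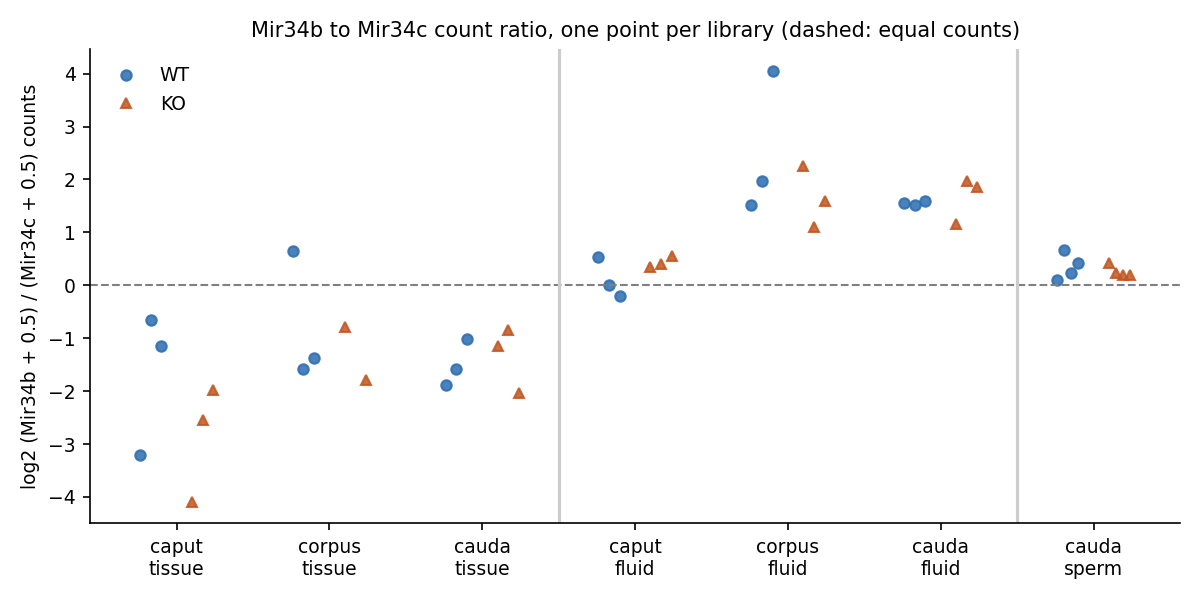
Log2 ratio of Mir34b to Mir34c counts, with 0.5 added to each, by segment and material, 1 point per library, WT as circles and KO as triangles, with a dashed line at equal counts. Tissue points lie below the line in 16 of 17 libraries, and fluid and sperm points lie on or above it in all but 1 library.

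In tissue the family was near the limit of detection. Mir34c had 32, 5 and 36 counts in the WT caput libraries, 8, 20 and 57 in KO caput, 3, 4 and 37 in WT corpus, 9 and 15 in KO corpus, 5, 1 and 43 in WT cauda, and 5, 4 and 22 in KO cauda. In each group of 3 libraries replicate 3 had the highest count, and KO and WT overlapped in each segment. Replicate 3 was also the deepest library of each of these groups. In CPM it was not the highest in WT caput, KO caput or KO cauda. Mir34b had 0 to 21 counts and was at 0 in 2 of 17 libraries. Mir34a had 0 to 11 counts and was at 0 in 3 of 17 libraries, where a count of 0 allows up to 0.0431 CPM in KO corpus replicate 1 and 0.0996 and 0.115 CPM in WT cauda replicates 1 and 2. CPM here are counts scaled to a TMM-adjusted library total of 1000000.

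Mir34c, the only member tested in tissue, gave 0 calls in edgeR's quasi-likelihood test. KO minus WT log2 fold changes were 0.05 (SE 0.57) in caput, 0.37 (SE 0.70) in corpus and 0.83 (SE 0.67) in cauda, with adjusted p in edgeR of 0.9996, 0.909 and 0.590. Its unadjusted p was under 0.05 in 0 of these comparisons and DESeq2 called it in 0. Over all RNAs tested, the share called was 0% in caput and corpus and 0.86% in cauda. Between segments of WT tissue, Mir34c differed by -0.03 (SE 0.63) from caput to cauda and by -0.40 (SE 0.61) from caput to corpus, with adjusted p in edgeR of 0.977 and 0.757. Against WT caput tissue, 23% of all RNAs were called in cauda and 11.8% in corpus. The family share of microRNA counts in cauda tissue was 0.0934% ± 0.0354 in KO and 0.0391% ± 0.0303 in WT (SD, n = 3 each), which overlapped (exact permutation p = 0.20).

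In WT fluid, Mir34b was higher in corpus and in cauda than in caput, and Mir34c was higher in cauda than in caput. Mir34b, a member of the germ cell and ciliated cell cluster, was at 0.798, 1.05 and 0.898 CPM in WT caput fluid (6 counts in each library). It was at 5.67, 2.73 and 8.25 CPM in corpus and at 21.2, 13.1 and 9.86 CPM in cauda. The lowest corpus library was above every caput library, and the lowest cauda library above every corpus library, as were 16.8% and 10.8% of all RNAs in those comparisons. In edgeR, Mir34b was higher in WT corpus than caput by a log2 fold change of 2.57 (SE 0.48, adjusted p = 0.00194) and in WT cauda than caput by 3.998 (SE 0.49, adjusted p = 1.3e-05). From corpus to cauda its log2 fold change was 1.43 (SE 0.42, edgeR adjusted p = 0.0680). Of all RNAs, 8.21% were called higher in WT corpus than caput fluid and 0.198% in WT cauda than corpus fluid.

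Mir34c, its cluster neighbour, was at 0.532, 1.05 and 1.05 CPM in WT caput fluid, at 1.94, 0.659 and 0.403 CPM in corpus and at 7.17, 4.58 and 3.23 CPM in cauda. Caput and corpus overlapped, and cauda stood above both. In edgeR it was higher in WT cauda than caput by a log2 fold change of 2.51 (SE 0.59, adjusted p = 0.00421) and than corpus by 2.30 (SE 0.58, adjusted p = 0.0356). From caput to corpus it was 0.21 (SE 0.64, edgeR adjusted p = 0.891). The call against corpus was lost on leaving out WT corpus replicate 2 or 3 or WT cauda replicate 1 or 3, with edgeR adjusted p of 0.0948 to 0.200, with library totals only (0.0943) and without the filter on low counts (0.0618).

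Mir34a and Mir449a gave no call in edgeR between WT fluid segments, though DESeq2 called both from corpus to cauda. Mir34a was at 1.20, 1.22 and 1.35 CPM in WT caput fluid, at 0.896, 0.471 and 0.403 CPM in corpus and at 2.58, 3.52 and 1.36 CPM in cauda. Mir449a, transcribed within the gene of a ciliated cell protein, was at 0.665, 1.40 and 0.449 CPM in caput, at 0.448, 0.188 and 0.403 CPM in corpus and at 3.22, 2.02 and 2.04 CPM in cauda. Both were lowest in corpus without overlap with caput and highest in cauda without overlap with either, in small counts of 2 to 40 per library. Some of these margins were very narrow. The highest corpus and lowest caput values of Mir449a, 0.448 and 0.449 CPM, both rest on 3 counts. For Mir34a the highest caput value was 1.35 CPM and the lowest cauda value 1.36 CPM. Of all RNAs, 21.5% were lower in WT corpus than caput without overlap. From corpus to cauda the edgeR log2 fold changes were 2.07 (SE 0.56, adjusted p = 0.0555) for Mir34a and 2.83 (SE 0.86, adjusted p = 0.0765) for Mir449a. DESeq2 gave 2.16 (adjusted p = 0.0228) and 2.97 (adjusted p = 0.0309), and it called all 4 members in that comparison. Mir34a was also called in edgeR with DESeq2 size factors (adjusted p = 0.0426) and on leaving out WT corpus replicate 1 (adjusted p = 0.0450).

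Between WT cauda and caput fluid, 2 of the 4 tested members were called, both higher, against 9.69% of all 2023 RNAs called higher. All 4 were higher in cauda without overlap, as were 16.5% of all RNAs. The members' median log2 fold change was 2.03, beside 0.55 for the 232 microRNAs tested and -0.17 for all RNAs. Passing the filter required counts in only 1 group, and these counts describe the members. As a share of microRNA counts the family was at 0.142% ± 0.0517 in WT caput, 0.314% ± 0.130 in corpus and 0.770% ± 0.0831 in cauda (SD, n = 3 each). Cauda and caput shares did not overlap (exact permutation p = 0.10, the smallest that 3 against 3 allow).

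In KO fluid too, Mir34b was higher in corpus and in cauda than in caput. It was at 1.69, 1.65 and 2.03 CPM in KO caput, at 8.42, 10.5 and 10.4 CPM in corpus and at 14.4, 9.29 and 15.3 CPM in cauda. Corpus and cauda overlapped, and both were above caput. In edgeR it was higher than in caput by a log2 fold change of 2.45 in corpus (SE 0.45, adjusted p = 0.00131) and of 2.86 in cauda (SE 0.45, adjusted p = 3.56e-04). From KO corpus to cauda its log2 fold change was 0.41 (SE 0.42, edgeR adjusted p = 0.610). Mir34c was higher in KO cauda than caput by 1.72 (SE 0.55, edgeR adjusted p = 0.0264), a call that was lost on leaving out KO caput replicate 1, 2 or 3 or KO cauda replicate 1 or 3 (edgeR adjusted p 0.0587 to 0.178). Of all RNAs, 11.5% were called higher in KO cauda than caput fluid and 11.5% in KO corpus than caput fluid, and 18% and 20.2% were higher without overlap. The segment comparisons within WT and within KO use different libraries.

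**Figure D3:**
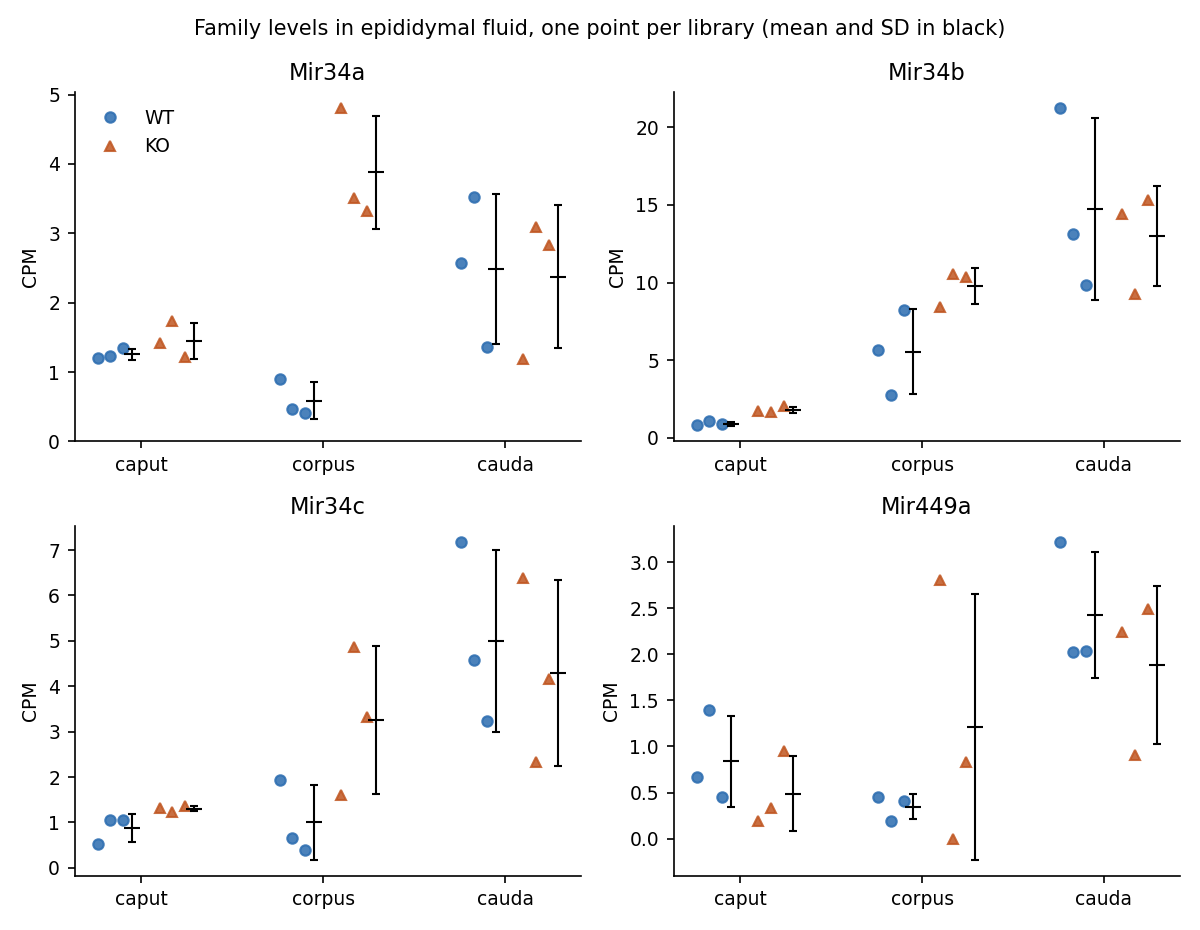
Levels of Mir34a, Mir34b, Mir34c and Mir449a in epididymal fluid, in CPM on TMM-scaled totals, by segment, 1 point per library with mean and SD in black, WT as circles and KO as triangles. Mir34b lies between 0.798 and 2.03 CPM in caput and between 9.29 and 21.2 CPM in cauda, and Mir34a in corpus lies between 0.403 and 0.896 CPM in WT and between 3.31 and 4.81 CPM in KO.

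MicroRNAs of the spermatogenic X-linked clusters, which are expressed in male germ cells, had the same order of levels in WT fluid as Mir34b. Mir34c overlapped between caput and corpus there, and Mir34a and Mir449a were lowest in corpus. The 18 listed genes of that list held 0.0727% ± 0.0616 of microRNA counts in WT caput, 0.618% ± 0.314 in corpus and 1.17% ± 0.00817 in cauda (SD, n = 3 each), and 2.88% ± 1.24 in WT sperm (n = 4). Of 13 tested in fluid, 11 were called higher in WT cauda than caput and 0 lower, with a median log2 fold change of 4.13. Mir465b-1 and Mir465b-2, near-identical copies that share reads, rose by 5.08 (SE 0.91, edgeR adjusted p = 6.17e-04). Counts on piRNA loci, taken as a further germ cell measure though their origin was not tested, did not follow this order. They were at 0.142% ± 0.0247 of all counts in WT caput, 0.138% ± 0.0233 in corpus and 0.109% ± 0.0427 in cauda fluid. The part of RNA from residual sperm or germ cells in the fluid values of the family was not tested.

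By Pearson correlation of log2 CPM, the microRNAs closest to Mir34b over the 18 fluid libraries came from the same X-linked clusters. The correlations were 0.90 for each of Mir465c-1, Mir465c-2 and Mir465b-1, out of 228 microRNAs that are no member. Mir465c-1 and Mir465c-2 had identical counts in every fluid library and are 1 measurement. By Spearman correlation the third was Mir16-1 of the p53 list (0.93), after the Mir465c copies (0.94). For Mir34c they were Mir881 (0.78), Mir465c-1 and Mir465c-2 (0.77 each), beside 0.77 for Mir34b itself. Mir34a was closest to Mir301 (0.84), Mir30a (0.75) and Mir322 (0.75), and its correlation with Mir34b was 0.45. Mir449a was closest to Mir425 (0.65), Mir19a (0.64) and Mir145a (0.62). In the 17 tissue libraries Mir34c was closest to Mir151 (0.63), Mir881 (0.62) and Mir182 (0.59), of which only Mir881 was also among the closest 3 by Spearman correlation. These correlations describe libraries that share segment, depth and scaling, and carry no test.

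The other lists moved in their own ways between WT cauda and caput fluid. Of 6 tested p53-responsive microRNAs other than miR-34, 2 were called higher, Mir16-1 by 2.10 (SE 0.44, edgeR adjusted p = 0.00216) and Mir15a by 1.45 (SE 0.43, adjusted p = 0.0165), and 0 lower. Of 6 microRNAs of the epididymal epithelium, 1 was called lower, Mir204, by -3.11 (SE 0.41, edgeR adjusted p = 3.15e-05), and 0 higher. Of 2 leukocyte microRNAs 1 was called higher, Mir223, by 2.12 (SE 0.53, edgeR adjusted p = 0.00567), and the smooth muscle, endothelium, red blood cell and striated muscle lists gave 0 calls among 2, 1, 2 and 4 tested. The smooth muscle pair Mir143 and Mir145a, which the p53 list also holds, went from 3.69% ± 0.444 to 7.41% ± 0.122 of microRNA counts.

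KO and WT fluid differed for 1 member in 1 segment, Mir34a in the corpus. Mir34a was at 4.81, 3.51 and 3.31 CPM in KO corpus fluid and at 0.896, 0.471 and 0.403 CPM in WT (12, 13 and 8 counts against 6, 5 and 2). The lowest KO library was over 3 times the highest WT library. The KO libraries held 2474993, 3373869 and 1948718 counts in total and the WT libraries 6752462, 10172577 and 3989262. Depth thus moved with genotype in corpus fluid too, without overlap. In edgeR the log2 fold change of Mir34a was 2.68 (SE 0.58, adjusted p = 0.00272), and it ranked 14 of 232 microRNAs. Under the alternatives tried, the log2 fold change ran from 1.85 to 3.07 and the adjusted p reached 0.0408 at most.

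That change stood among many in corpus fluid, where 13.5% of all RNAs were called higher in KO and 55 of 232 microRNAs were called higher and 0 lower. The median log2 fold change of the microRNAs was 1.07, and microRNAs made up 0.571% ± 0.222 of all counts in KO and 0.267% ± 0.0768 in WT corpus fluid (SD, n = 3 each). As a share of microRNA counts Mir34a was at 0.0845% ± 0.0407 in KO and 0.0259% ± 0.0153 in WT, a log2 ratio of 1.70 without overlap (exact permutation p = 0.10, the smallest that 3 against 3 allow, 0.646 after adjustment over 42 shares). Some markers of other cells were also higher in KO corpus fluid, and 0 were lower. Called higher were 1 of 6 tested microRNAs of epididymal epithelium, 1 of 1 of endothelium, 1 of 2 of leukocytes, 2 of 4 of striated muscle (Mir1a-1 and Mir1a-2, which share a mature sequence), and 0 of 2 each of smooth muscle and red blood cells. They include Mir126a of endothelium (log2 fold change 1.70, SE 0.49, edgeR adjusted p = 0.0199), Mir142 of leukocytes (2.17, SE 0.59, adjusted p = 0.0135), Mir1a-2 of striated muscle (2.25, SE 0.59, adjusted p = 0.0107) and Mir204 of the epithelium (2.68, SE 0.41, adjusted p = 0.00138). As a share of microRNA counts, the means of some lists were higher in KO and those of others lower. Epithelium was at 2.38% ± 0.929 in WT and 2.89% ± 0.222 in KO, endothelium at 0.627% ± 0.293 and 0.932% ± 0.221, and striated muscle at 0.319% ± 0.0304 and 0.535% ± 0.258 (SD, n = 3 each). Smooth muscle was at 5.63% ± 2.20 in WT and 3.55% ± 0.785 in KO, red blood cells at 1.53% ± 0.623 and 1.06% ± 0.691, and leukocytes at 0.643% ± 0.126 and 0.688% ± 0.341. The ranges of WT and KO overlapped for all 6 of these lists. Counts on piRNA loci did not overlap, at 0.138% ± 0.0233 of all counts in WT and 0.355% ± 0.153 in KO corpus fluid. The part of these cells and of germ cell RNA in the Mir34a result was not tested.

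The other members in corpus fluid gave no call. Mir34b was at 8.42, 10.5 and 10.4 CPM in KO and at 5.67, 2.73 and 8.25 CPM in WT, just without overlap (as were 20.4% of all RNAs), with a log2 fold change of 0.84 (SE 0.43, edgeR adjusted p = 0.174). Mir34c was at 1.60, 4.86 and 3.31 CPM in KO and at 1.94, 0.659 and 0.403 CPM in WT, which overlapped, with 1.71 (SE 0.61, edgeR adjusted p = 0.0523). Mir449a had 7, 0 and 2 counts in KO and 3, 2 and 2 in WT, and 1 KO library set its log2 fold change of 1.73 (SE 0.99, edgeR adjusted p = 0.233), which was 0.02 without it. As a share of microRNA counts the whole family overlapped between genotypes, at 0.380% ± 0.102 in KO and 0.314% ± 0.130 in WT corpus fluid (exact permutation p = 0.60). The spermatogenic X-linked list gave 0 calls of 13 there.

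In caput fluid 0 of 4 members were called in edgeR, with 0 at an unadjusted p under 0.05 and 0 in DESeq2. Mir34b at 1.69, 1.65 and 2.03 CPM in KO was above the WT values of 0.798, 1.05 and 0.898 CPM, with a log2 fold change of 0.96 (SE 0.49, edgeR adjusted p = 0.535). Mir34c at 1.32, 1.24 and 1.35 CPM in KO was also above WT at 0.532, 1.05 and 1.05 CPM, with 0.58 (SE 0.61, edgeR adjusted p = 0.816). Of all RNAs, 13.3% were higher in KO caput fluid without overlap and 0% were called. The median log2 fold change of the 232 microRNAs tested was 0.48, and 196 of them were positive. As a share of microRNA counts, Mir34b was at 0.0441% in KO and 0.0333% in WT, Mir34c at 0.0324% and 0.0325%, and the family at 0.124% and 0.142%. These shares overlapped between genotypes. Mir34a and Mir449a overlapped between genotypes there.

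In cauda fluid 0 of 4 members were called, with 0 at an unadjusted p under 0.05 and 0 in DESeq2. The log2 fold changes in edgeR were -0.12 (SE 0.49) for Mir34a, -0.19 (SE 0.40) for Mir34b, -0.21 (SE 0.52) for Mir34c and -0.37 (SE 0.71) for Mir449a, with adjusted p of 0.891 to 0.958, and 0% of all RNAs were called. KO and WT overlapped for each. The family share of microRNA counts was 0.556% ± 0.218 in KO and 0.770% ± 0.0831 in WT (exact permutation p = 0.30). The change of the KO effect from caput to cauda was tested as an interaction, and 0 of 4 members were called, with Mir34b at -1.14 (SE 0.63, edgeR adjusted p = 0.494), 0 at an unadjusted p under 0.05, 0 in DESeq2 and 0% of all RNAs called.

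The KO effect on Mir34a was larger in corpus than in cauda fluid by 2.80 (SE 0.76, edgeR adjusted p = 0.0289), in a contrast added after the corpus difference was seen, in which 4.5% of all RNAs were called higher. The same contrast against caput fluid gave 2.46 (SE 0.79, edgeR adjusted p = 0.122), with 1.68% of all RNAs called higher. In WT, Mir34a was lower in corpus than caput fluid by a log2 fold change of -1.07 (SE 0.59, edgeR adjusted p = 0.218), and in KO it was higher by 1.39 (SE 0.53, adjusted p = 0.0687), neither of them called. The contrast with cauda was not called with library totals only, with scaling on RNAs that are neither tRFs, tRNAs nor rsRNAs, without the filter on low counts, or on leaving out any of 9 of the 12 libraries.

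**Figure D4:**
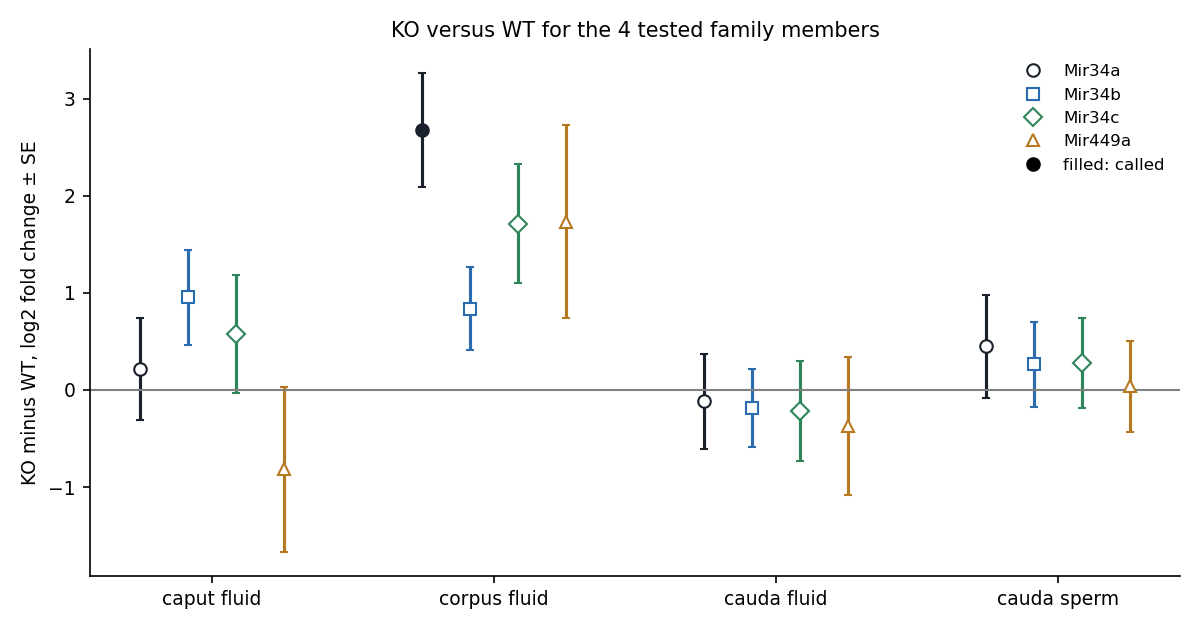
KO minus WT log2 fold change with its SE from edgeR for Mir34a, Mir34b, Mir34c and Mir449a in caput, corpus and cauda fluid and in cauda sperm, where a filled marker is a call (adjusted p below 0.05, log2 fold change beyond 1 in size). Only Mir34a in corpus fluid, at 2.68, is filled.

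In cauda sperm, where the family held its largest share of microRNA counts, 0 of 4 tested members were called between KO and WT, with 0 at an unadjusted p under 0.05 and 0 in DESeq2. Mir34b was at 21.3, 9.36, 10.6 and 16.6 CPM in WT and at 21.2, 14.2, 14.0 and 20.9 CPM in KO. Mir34c was at 20.0, 5.85, 8.99 and 12.3 CPM in WT and at 15.8, 12.1, 12.3 and 18.2 CPM in KO. The KO values of both lay within the WT range, and the 2 lowest WT values came from libraries with few counts (24 and 20 of Mir34b, 15 and 17 of Mir34c). The log2 fold changes in edgeR were 0.26 (SE 0.44) for Mir34b and 0.28 (SE 0.46) for Mir34c, both with an adjusted p of 0.820, and 0% of all 2480 RNAs were called. Among those RNAs the smallest edgeR adjusted p was 0.116, and 434 had an unadjusted p under 0.05. The study, with DESeq2, reported many tRFs and some rsRNAs as lower in KO sperm, so the 0% holds for the edgeR fit used here.

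Mir449a was at 5.76, 2.73, 1.06 and 3.98 CPM in WT sperm and at 2.80, 3.89, 4.32 and 4.12 CPM in KO, with a log2 fold change of 0.04 (SE 0.47, edgeR adjusted p = 0.975). Mir34a was at 0.814, 1.17, 2.64 and 0.723 CPM in WT and at 0.992, 1.85, 2.03 and 1.03 CPM in KO, with 0.45 (SE 0.53, edgeR adjusted p = 0.760). Both overlapped between genotypes. Of the other lists in sperm, 0 of 16 spermatogenic X-linked microRNAs and 0 of 8 p53-responsive ones were called. In the 4 libraries above 30000000 counts the signs of Mir34b, Mir34c and Mir449a turned, to -0.54, -0.74 and -0.81. These 4 are 1 WT and 3 KO libraries, so the values rest on a lone WT library and are given with no call.

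Mir449c, the member nearest to the start of the Cdc20b gene, was listed in sperm only and did not pass the filter. It had 14, 0, 0 and 0 counts in WT sperm and 1, 13, 1 and 0 counts in KO sperm, or 29 counts in all beside 951 for Mir449a. The 4 libraries with a count were the 4 above 30000000 counts. In the shallow libraries a count of 0 allows up to 1.59 CPM, above the highest level measured, 0.273 CPM in KO sperm replicate 2. Levels like those of the deep libraries were not detectable at that depth.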

How the data were processed

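Small RNAs had been sequenced in 17 tissue libraries (ARM-seq) and in 18 fluid and 8 sperm libraries (OTTR-seq). The authors deposited raw read counts from a modified version of tRAX. Adapters were trimmed with cutadapt, molecular tags were handled with UMI-tools, and reads were mapped with bowtie2 to mm10 with mature tRNA and rRNA sequences. Versions were not given in the sources used here. Reads had at least 16 bases, and a read with several equally good matches counted on each feature, without normalization, so a microRNA's count covers its whole Ensembl hairpin and both of its arms.

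Libraries were grouped by title. The 3 tables were analyzed separately with R 4.3.3, edgeR 4.0.16 and DESeq2 1.42.0, and in python 3.11.15 using matplotlib 3.10.9, scipy 1.17.1, pandas 2.3.3 and numpy 2.4.6. RNAs were filtered with filterByExpr by group (minimum count 10, minimum total 15), keeping 3488 in the tissue table, 2023 in the fluid table and 2480 in the sperm table, and scaled by TMM. All groups of a table entered 1 quasi-likelihood fit. Adjusted p-values are Benjamini-Hochberg values over every RNA tested in a comparison. A call needed one below 0.05 and a log2 fold change beyond 1 in size. Every share of RNAs called is from these edgeR fits. With DESeq2, the study reported some tRFs and rsRNAs as lower in KO tissue, fluid and sperm. Shares of counts and log2 ratios (0.5 added to each count) were compared with 2-sided exact permutation tests. Share ratios are log2 ratios of group means, and CPM use a TMM-adjusted library total of 1000000. Errors are SD between libraries or SE of the fit. P-values measure the spread between these libraries. Replicate pairs were compared, and no library looked like a copy of another. The fit was tested on simulated counts.

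The members, marker lists and comparisons were chosen with earlier results of these data known. Named were the 5 members, the 3 other microRNAs with the highest Pearson correlation of log2 CPM (prior count 2) to each member in tissue and in fluid, and up to 2 microRNAs of a list per comparison, those with the smallest p. The lists were spermatogenic X-linked and p53-responsive microRNAs and microRNAs of epididymal epithelium, smooth muscle, endothelium, red blood cells, leukocytes and striated muscle, with piRNA loci as a further germ cell measure. Mature and hairpin sequences came from RefSeq (GRCm38.p6), where 5 hairpins and 9 mature entries matched the members by symbol, and positions from GENCODE vM21.

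Same-numbered libraries were judged to pair only where each pair's deviations from the group means correlated above 0.1 over 3 pairs. That held for KO and WT cauda tissue (0.27 to 0.60), for the WT tissue segments (0.29 to 0.67), for KO cauda and caput tissue (0.18 to 0.60) and for KO cauda and corpus fluid (0.13 to 0.27). The main fits and the permutation tests did not use the pairing, also in these comparisons. It entered only through the replicate block, as an alternative. The alternatives were DESeq2 and its size factors, library totals, TMM factors from RNAs that are neither tRFs, tRNAs nor rsRNAs, no filter, 2 groups alone, the replicate block, other denominators and pseudocounts, Spearman correlation and leaving out each library. The split of sperm by depth and 2 interactions in fluid were added after seeing the data.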

Additional observations from a re-analysis of the deposited data

Results flagged for a closer look

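Mir449c had 1 sperm library far above the other 3 in each genotype, at 0.219 CPM in WT (14 counts in replicate 1, 0 in the others) and at 0.273 CPM in KO (13 counts in replicate 2, 0 or 1 in the others). Both gaps exceed Dixon's 95% critical value for groups of 4. The other WT libraries had fewer than 30000000 counts, where a count of 0 allows up to 1.59 CPM, above 0.219 CPM. With 0 in all of them the WT test had to pass, so it cannot tell an outlier from depth. KO replicates 1 and 3, with 1 count each, were deeper than KO replicate 2 (44325673 and 62128314 against 42764979 counts in total). There were 16 such tests, of which chance is expected to mark about 1 in 20.

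The KO effect on Mir34a differed between fluid segments, with a log2 fold change 2.80 larger in corpus than in cauda fluid (edgeR adjusted p = 0.0289). This contrast was added after the corpus difference was seen, and its call was lost under 12 of 18 alternatives (adjusted p 0.0157 to 0.128 over all of them). Written as a segment difference, the same contrast is -2.80, the cauda minus corpus change in KO less that in WT. The corpus minus caput change of Mir34a was 2.46 larger in KO than in WT (edgeR adjusted p = 0.122). The samples behind it moved in opposite directions without overlap, lower in corpus in WT and higher in corpus in KO. Of all RNAs, 21.5% were lower without overlap in the WT comparison and 20.2% were higher without overlap in the KO comparison. The contrasts share the corpus libraries and are not independent of each other.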

How the results depend on the processing

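Of 1178 values over 99 results and their alternatives, 1049 kept direction and call. Few counts (0 to 57 per gene in tissue, 0 to 231 in fluid) limit each fold change, and in sperm and corpus fluid depth moved with genotype. The values below changed sign, changed a call or moved a count of calls, and where no cause is given the cause was not tested.

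Calls changed in 4 fluid comparisons. From WT corpus to cauda, 1 member was called, with 2 by DESeq2 size factors in edgeR, 0 with library totals, 0 without the filter, 4 in DESeq2 and 0 to 2 on leaving out a library. From KO caput to cauda, 2 were called and 1 to 3 on leaving out a library. Scaling on RNAs that are neither tRFs, tRNAs nor rsRNAs added Mir449a there, at 2.54 (edgeR adjusted p = 0.0182). Its main value was 1.99 (SE 0.80, edgeR adjusted p = 0.0676). Between KO and WT corpus fluid, 1 was called, with 1 to 2 on leaving out a library and 2 with a replicate block. Blocking added Mir34c there (1.83, edgeR adjusted p = 0.0456), though the numbers do not pair these libraries (correlations -0.05 to 0.20), and the block changed no other count of calls. For the KO effect in corpus minus cauda fluid, 1 was called, with 0 under library totals, scaling on other RNAs (neither tRFs, tRNAs nor rsRNAs), or no filter, and 0 to 1 on leaving out a library.

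All other sign changes were in differences that were not called. In caput tissue the KO log2 fold change of Mir34c was 0.046, and -0.057 with DESeq2 size factors, -0.066 with library totals, -0.076 with scaling on other RNAs, -0.019 without the filter, -0.067 in DESeq2, -0.033 with 2 groups alone, and -0.33 to 0.84 on leaving out a library. In corpus tissue it turned to -0.014 with library totals. Its WT cauda minus caput tissue value was 0.067 with the replicate block, where the numbers pair the libraries, and -0.38 to 0.87 on leaving out a library, its WT corpus minus caput value -1.12 to 0.43, its KO cauda minus caput value -0.0038 with library totals, and its tissue interaction -0.10 to 1.16. In fluid, with scaling on other RNAs, Mir34a turned to -5.5e-04 in caput, to 0.0078 in cauda and to 0.0084 for the interaction of cauda and caput. With library totals the cauda values were 0.0066 for Mir34a, 0.069 for Mir34b and 0.089 for Mir34c. On leaving out a library, KO minus WT cauda fluid ran from -0.45 to 0.26 for Mir34a, -0.40 to 0.16 for Mir34b, -0.62 to 0.16 for Mir34c and -0.64 to 0.067 for Mir449a, WT corpus minus caput Mir34c from -0.65 to 0.73, and the Mir449a interaction from -0.20 to 1.22.

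In sperm, the KO values with library totals were -0.14 for Mir34b, -0.13 for Mir34c and -0.21 for Mir449a, and in the libraries above 30000000 counts -0.54, -0.74 and -0.81. With scaling on other RNAs they were -0.0041 for Mir34c and -0.18 for Mir449a, and Mir449a was -0.15 with DESeq2 size factors, -0.012 without the filter and -0.15 in DESeq2. On leaving out a library they ran from -0.044 to 0.36 for Mir34b, -0.10 to 0.49 for Mir34c and -0.31 to 0.34 for Mir449a.

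The log2 ratio of KO to WT family shares of microRNA counts was -0.20 in caput fluid, and 0.56 as a share of all counts, 0.67 as a share of counts on other RNAs, and -0.43 to 0.10 on leaving out a library. In cauda fluid it was 0.053 as a share of all counts, and in corpus fluid -0.011 to 0.58 on leaving out a library. In corpus tissue it was -0.21 and -0.52 under those denominators, and in caput tissue -0.45 to 0.17 on leaving out a library. The KO minus WT difference of the Mir34b to Mir34c ratio turned to -0.030 with a pseudocount of 1 in cauda tissue. On leaving out a library it ran from -1.02 to 0.19 in corpus tissue, -0.093 to 0.50 in cauda tissue, -0.039 to 0.36 in cauda fluid and -0.18 to 0.011 in sperm, and the WT cauda minus caput tissue difference from -0.59 to 0.69.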
